A study of Mus musculus with 28 samples.

Results

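The comparison described here sets the hypothalamus of Hdc KO mice against the hypothalamus of Hdc heterozygous (het) mice. Hdc encodes histidine decarboxylase, and het mice keep 1 intact copy. The libraries were picked by their labels, with no measured value: KO 7 and KO 8 (n = 2) and het 4, het 5 and het 6 (n = 3), which is 5 of the 28 libraries of the series. Each library is named by its genotype and the digit in its title. The series measured RNA in 4 brain regions of WT, het and KO mice, all 2-3 months old, male and on a C57Bl/6 background per the study's methods. The 3 WT hypothalamus libraries (WT 1, WT 2 and WT 3) are given beside the values as a further reference. The knockout is present from conception in every cell, and the part of the gene that was removed is not given in the sources used here.

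Histidine decarboxylase converts histidine to histamine. In the brain, histamine is made by neurons of the tuberomammillary nucleus in the posterior hypothalamus, which project widely and promote wakefulness. The hypothalamus therefore holds the cell bodies in which Hdc is normally transcribed, and it also holds the neuropeptide neurons that control feeding, body temperature, hormone release and daily rhythm. Histamine acts through the receptors Hrh1, Hrh2 and Hrh3 in the brain, and Hrh3 is also the autoreceptor of histamine neurons.

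Between 3861785 and 4815700 reads were counted on genes in each of the 5 libraries. The share of all reads that fell on genes was 49.65% and 48.88% in KO 7 and KO 8, and between 52.18% and 54.16% in the het libraries, so the groups did not overlap in this measure. Reads that did not align made up 10.66% and 11.18% in the KO libraries and between 8.37% and 9.0% in the het libraries. The part of these differences in the results below was not tested. Nothing in the labels says that the libraries of a group came from separate litters or preparation days. The p-values rest on the spread within the groups of all 28 libraries, not on these 5 alone.

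The label of the tissue was checked against hypothalamic markers. Of 34 hypothalamic transcription factors, all had counts and 30 were above 1 CPM (the read count scaled to a common library size) in 2 or more of these libraries. Hcrt, the orexin precursor, was present at 51.9 and 74.9 CPM in the KO libraries and at 59.96, 76.3 and 43.7 CPM in the het libraries. Pmch, the precursor of melanin-concentrating hormone, was at 85.0 and 114 CPM against 109, 114 and 85.5 CPM. Levels of genes from other regions differed between libraries. KO 8 stood apart in genes of cortical excitatory neurons: the summed level of the 10 list members was 504 CPM in KO 8, 97.6 CPM in KO 7, between 89.1 and 138 CPM in het and between 104 and 125 CPM in WT. Het 6 had the highest sums of thalamus and of myelin genes. Its 8 thalamus genes summed to 992 CPM, against 696 and 585 CPM in het 4 and het 5 and 602 and 482 CPM in the KO libraries, and WT 1, WT 2 and WT 3 had 575, 903 and 743 CPM. Its 21 myelin genes summed to 6450 CPM, against 4815 and 3764 CPM in het 4 and het 5 and 4400 and 4217 CPM in the KO libraries and 4104 to 4570 CPM in WT. Log2 fold changes without KO 8 are therefore given for the called genes described below, other than those with very few reads, and medians without it are given for several lists.

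Hdc itself was counted in every KO library. Hypothalamic Hdc was 11.7 CPM in KO 7 and 14.05 CPM in KO 8, 14.5, 21.6 and 15.1 CPM in the het libraries, and 15.2, 19.0 and 16.8 CPM in WT. Both KO libraries lay below the het and WT ranges, by a margin of under 1 CPM between KO 8 and het 4. The log2 fold change of KO against het was -0.41 (SE 0.21), with an adjusted p of 0.924 by edgeR's likelihood ratio test, and the exact two-sided permutation test gave p = 0.3, where the smallest p that 10 assignments of 2 and 3 libraries allow is 0.1. Because the removed part is not known here, a count over the whole gene checks nothing about the deletion. Hdc lies on the minus strand at chr2:126593667-126619299 (GRCm38).

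Outside the hypothalamus the order of genotypes was different. In the dorsal striatum Hdc was 9.27 and 8.2 CPM in KO, 6.77, 4.19 and 5.73 CPM in het and 0.905 and 0 CPM in WT. In the ventral striatum it was 11.6 and 12.96 CPM in KO, 5.32, 5.25 and 5.53 CPM in het and at most 1.62 CPM in WT. In the motor cortex, KO 7 and KO 8 had 10.1 and 7.86 CPM, het 5 and het 6 had 4.84 and 5.42 CPM, and the single WT library had none. Every KO library was above every het library in these 3 regions, and the hypothalamus had the reverse order. The KO minus het difference in the hypothalamus, less its mean over the other regions, was -1.29 on the log2 scale (SE 0.27), with an adjusted p of 0.00278 by edgeR's likelihood ratio test.

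**Figure D1:**
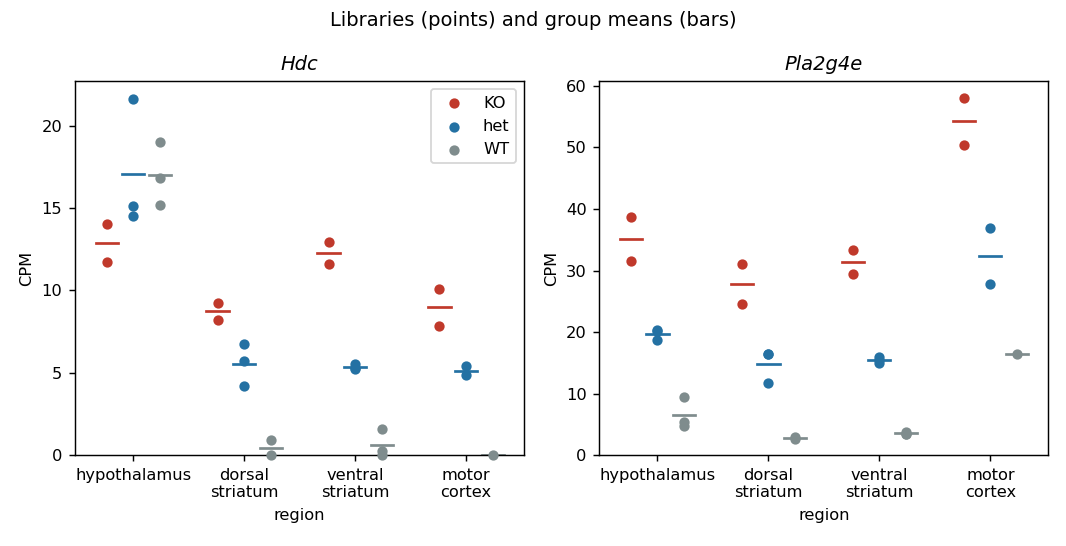
CPM of Hdc (left) and Pla2g4e (right) in each library, by region and genotype, with bars at the group means. Hypothalamic Hdc was 11.7 to 14.05 CPM in KO and 14.5 to 21.6 CPM in het, whereas in the other regions KO was above het and WT was near 0, and Pla2g4e was highest in KO and lowest in WT in every region.

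The filter kept 13830 genes. Of these, 35 (0.253%) were called between KO and het at an adjusted p under 0.05 by edgeR's likelihood ratio test, the test of the study's methods. They were 33 genes higher in KO (0.239%) and 2 lower (0.0145%). At an unadjusted p under 0.05 there were 751 genes (5.43%), of which 489 were higher (3.54%) and 262 lower (1.89%). The call count depended on the test and on KO 8. The quasi-likelihood test of edgeR called 0 genes (697 at an unadjusted p under 0.05), limma voom called 0 (711 unadjusted), and the Wald test of DESeq2 called 7, among them Kcnh3, Itpka, Ankrd33b, Igfbp4, Ide and Fos. Without KO 8 the likelihood ratio test called 0 genes (505 unadjusted), and without KO 7 it called 86, of which 25 were among the 35. Of the 35 log2 fold changes, 32 kept their sign without KO 8. Of the 33 higher genes, 17 had a level in KO 8 that was over 2 times that of every other hypothalamus library, and 13 had a level in KO 8 at most 2 times that in KO 7.

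**Figure D2:**
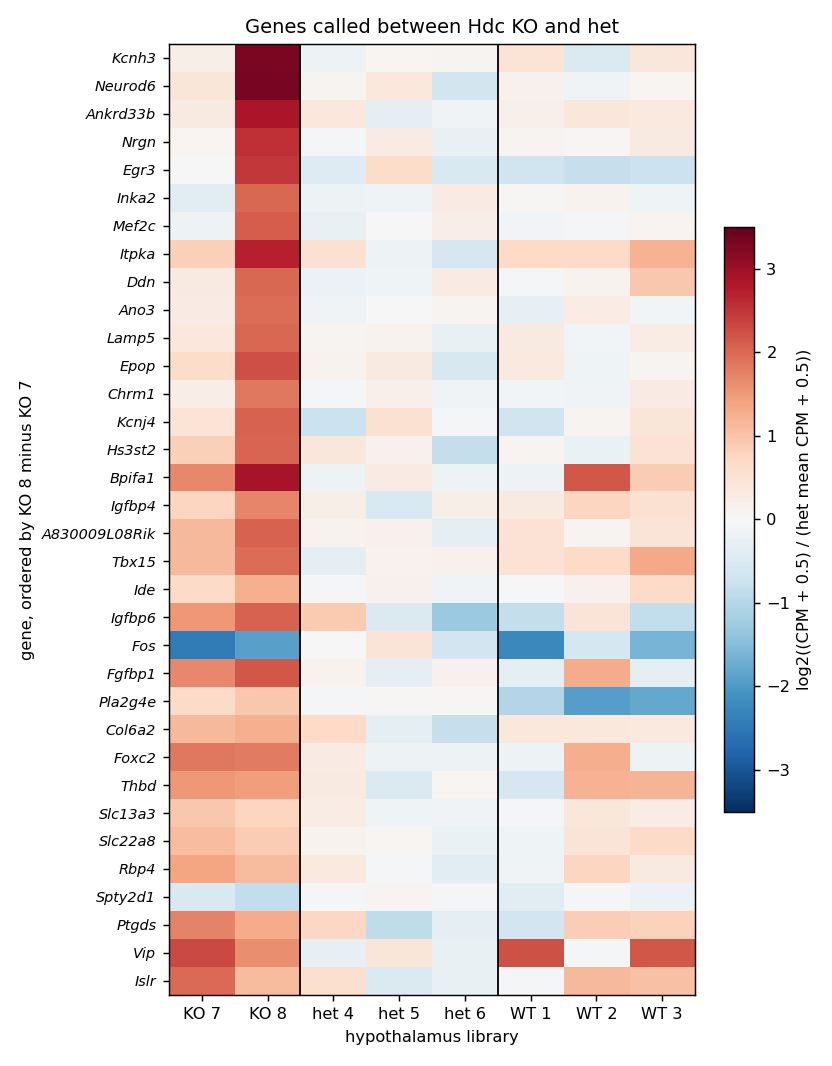
Level of 34 of the called genes (rows) in the 8 hypothalamus libraries (columns), as the log2 ratio of CPM + 0.5 to the het mean, with genes ordered by how much KO 8 exceeded KO 7. The upper rows are much higher in KO 8 than in KO 7, for example Nrgn at 226 and 39.3 CPM, and the lower rows are high in both KO libraries, for example Slc22a8 at 18.5 and 21.3 CPM.

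Many of the called genes were much higher in KO 8 than in KO 7, and several are known from forebrain projection neurons. Kcnh3, a potassium channel subunit of the forebrain, was 0.869 CPM in KO 7 and 11.1 CPM in KO 8, against 0.552, 0.739 and 0.774 CPM in het and between 0.342 and 1.15 CPM in WT. Its log2 fold change was 3.07 (SE 0.55, adjusted p = 2.33e-06 by edgeR's likelihood ratio test), and 0.33 without KO 8. No het library exceeded 1 CPM, so Kcnh3 passed the filter only through the KO libraries, which favours a higher level in KO. Nrgn encodes neurogranin, a calmodulin-binding protein of dendritic spines. It was 39.3 and 226 CPM in KO and 35.7, 45.8 and 31.5 CPM in het (log2 fold change 1.82, SE 0.36), and the difference was 0.06 without KO 8.

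Genes of several kinds were higher in KO 8 than in KO 7. Mef2c, a transcription factor of neuronal activity and development, was 32.6 and 162 CPM in KO and 30.3, 36.4 and 43.3 CPM in het. Neurod6, a transcription factor of cortical excitatory neurons, was 1.74 and 16.4 CPM in KO and 1.29, 1.66 and 0.581 CPM in het. Chrm1, a muscarinic acetylcholine receptor, was 14.99 and 46.2 CPM in KO and 11.96, 14.2 and 11.6 CPM in het. Itpka, Lamp5, Ano3, Ddn, Kcnj4, Hs3st2, Epop, Ankrd33b, Inka2, Egr3 and Igfbp4 were also called and were over 2 times higher in KO 8 than in KO 7. Without KO 8 the log2 fold changes of Mef2c, Inka2 and Egr3 were -0.17, -0.44 and -0.01. Those of Chrm1, Ano3, Ddn, Lamp5 and Ankrd33b were between 0.25 and 0.40, and those of Neurod6 and Kcnj4 were 0.54 and 0.58. Larger differences were left in Igfbp4 (0.82), Epop (0.88), Hs3st2 (0.95) and Itpka (1.07), with no gene called. Igfbp4 in KO 7, at 6.08 CPM, was above the 2.22 to 4.06 CPM of the het libraries.

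The list of cortical excitatory neuron genes shows the same library. All 9 tested members had a log2 fold change above 0 (median 2.01, against 0.004 over all genes tested). Of these, 2 were called higher (Lamp5 and Neurod6), where 0.239% of all genes were. The median was 0.06 without KO 8 and 2.85 without KO 7. Slc17a7, the vesicular glutamate transporter of cortical neurons, was 19.8 CPM in KO 7 and 196 CPM in KO 8, against 25.6, 10.2 and 44.5 CPM in het, and did not pass (adjusted p = 0.787, edgeR's likelihood ratio test). In bulk tissue, more cells of a type and more RNA per cell cannot be told apart.

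**Figure D3:**
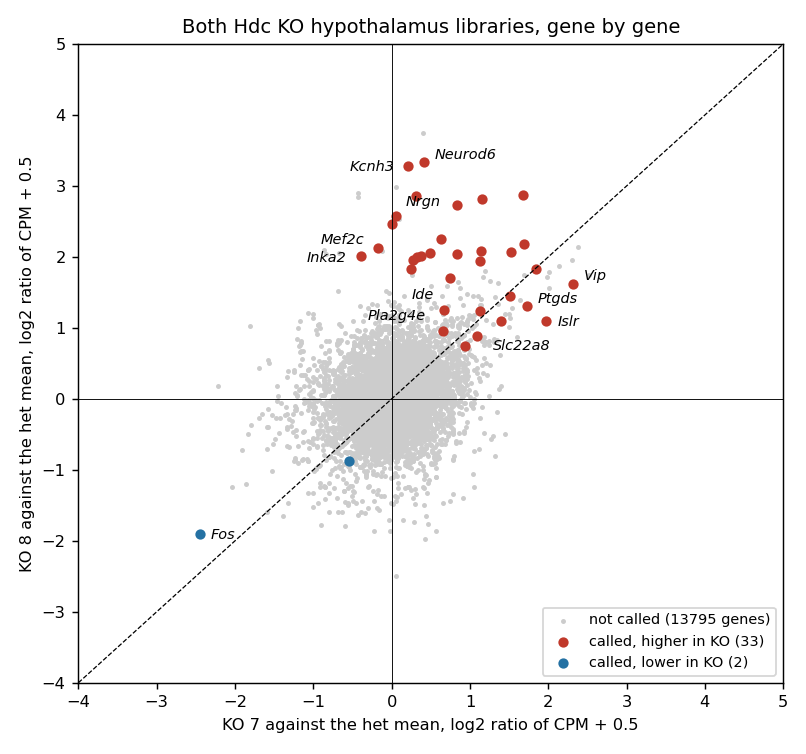
Each point is a gene, placed by its log2 ratio to the het mean in KO 7 (horizontal) and in KO 8 (vertical), with 0.5 added to each CPM and the dashed line where both are equal. Many of the 33 higher genes lie far above the line, with Nrgn and Kcnh3 near 0 on the horizontal axis, while Vip, Ptgds and Islr lie below it and Fos lies at the lower left.

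Genes with both KO libraries outside the range of the 3 het libraries were counted separately. Both KO libraries were above the het range for 1380 of the 13830 genes (9.98%) and below it for 1274 (9.21%), and 1498 (10.8%) had 1 KO library above and 1 below. Each of these 3 outcomes is 1 of the 10 assignments that 2 and 3 libraries allow. Shares of this size therefore arise without a difference between the groups. Among the 1380, 27 were called, 386 had an unadjusted p under 0.05, and 576 were also above all 3 WT libraries. Among the 1274, 2 were called, 222 had an unadjusted p under 0.05, and 454 were also below all 3 WT libraries. Over all genes tested, 0.239% were called higher and 0.0145% lower, and 3.54% and 1.89% had an unadjusted p under 0.05. The median log2 fold change was 0.38 in the first set and -0.28 in the second. The sign of each median and the direction of the calls were fixed by how the sets were chosen. The gap was at least 1.5 times, with at least 10 counts in every library of the higher group, for 49 genes above and 19 genes below.

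A group of called genes that were high in both KO libraries encodes transporters, secreted proteins and matrix components known from the meninges and blood vessels, a grouping made after their values were seen. Slc22a8, an organic anion transporter, was 21.3 and 18.5 CPM in KO, 10.7, 10.3 and 8.32 CPM in het, and 8.85, 13.5 and 15.9 CPM in WT. Neither the het nor the WT libraries reached the KO level. The log2 fold change was 1.02 (SE 0.22, adjusted p = 0.00345 by edgeR's likelihood ratio test), and it was 1.12 without KO 8 (adjusted p = 0.163).

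Ptgds makes prostaglandin D2 and is abundant in the leptomeninges. It was 661 and 495 CPM in KO, 330, 109 and 161 CPM in het, and 125, 362 and 350 CPM in WT, a log2 fold change of 1.53 (SE 0.39) against het. Het 4, WT 2 and WT 3 had 330 to 362 CPM, the other het and WT libraries had at most 161 CPM, and both KO libraries were above them all. Thbd, the thrombin receptor thrombomodulin, was 8.26 and 7.87 CPM in KO and 3.31, 1.66 and 2.71 CPM in het, while WT 2 and WT 3 had 6.67 and 6.44 CPM. Slc13a3, a dicarboxylate transporter, was 35.6 and 31.1 CPM in KO and 21.9, 16.4 and 16.6 CPM in het. Islr, a gene of mesenchymal cells, was 15.6 and 8.30 CPM in KO and 5.52, 2.40 and 2.90 CPM in het. In WT it was 3.46, 8.55 and 7.87 CPM, so KO 8 lay below WT 2. The log2 fold change of Islr against het was 1.72 (SE 0.42), and 2.10 without KO 8. Against WT, Slc22a8, Ptgds, Thbd, Slc13a3 and Islr gave 0.63, 1.05, 0.71, 0.64 and 0.84 in KO. None of these passed (adjusted p of 0.403, 0.532, 0.841, 0.293 and 0.774, edgeR's likelihood ratio test).

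Rbp4, the retinol carrier, Col6a2, a collagen chain, and Igfbp6, a binding protein of insulin-like growth factor, were also called and above the het range in both KO libraries. Their log2 fold changes were 1.43, 1.32 and 2.33, and 1.58, 1.26 and 1.98 without KO 8. Against WT, KO gave 0.99, 0.91 and 2.78, with adjusted p of 0.406, 0.471 and 0.00302 by edgeR's likelihood ratio test. Igfbp6 had 10, 2 and 0 reads in het and passed the filter only with the KO libraries, which favours a higher level in KO. Without KO 8, Ptgds, Thbd and Slc13a3 had 1.72, 1.68 and 0.96. A further 5 genes were called at very few reads. No het library exceeded 1 CPM for any of them, so they passed the filter only through the KO libraries. That selection favours a higher level in KO, and their calls and ratios carry that limit. Foxc2, a transcription factor of mesenchyme and lymphatic vessels, had 14 reads in KO and 1 in het, a ratio per library size of 24.1 (exact 95% interval 3.67 to 1020, for counting error only). Tbx15 had 13 reads against 2 (11.2, interval 2.53 to 102), Fgfbp1 had 18 against 2 (15.5, interval 3.71 to 138), and Bpifa1 had 23 against 1 (39.6, interval 6.43 to 1630). The noncoding gene A830009L08Rik had 14 against 2 (12.1, interval 2.77 to 109). Bpifa1 was 2.05 CPM in WT 2, above the 1.30 CPM of KO 7.

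The list of mural and fibroblast genes gave counts in the same direction without a call. Of 11 members, all tested, 10 had a log2 fold change above 0, 5 had both KO libraries above the het range (9.98% of all genes), and 4 were higher at an unadjusted p under 0.05 (3.54% of all genes). The median was 0.53. It was 0.36 without KO 7 and 0.79 without KO 8, with 2 and 1 members at an unadjusted p under 0.05. Igf2, a growth factor of the meninges and vessels, was 89.3 and 72.8 CPM in KO, 48.6, 24.2 and 21.3 CPM in het, and 21.0, 47.5 and 54.2 CPM in WT (adjusted p = 0.168, edgeR's likelihood ratio test). Their summed level was 308 and 302 CPM in KO and between 204 and 257 CPM in het. Endothelial genes had a median of -0.03 over 12 members, with none called (0.253% of all genes). Further transporter and matrix genes were among the 49 with a gap of at least 1.5 times, without a call. They include Slc22a6 (6.52 and 4.68 CPM in KO; 1.84, 0.55 and 1.35 CPM in het), Slc13a4 (25.9 and 20.2 CPM; 10.3, 1.11 and 3.10 CPM) and Fmod (29.1 and 24.1 CPM; 13.6, 2.96 and 2.13 CPM), which were picked after their values were seen. Het 4 was the highest het library for all 3, and WT 2 and WT 3 were above WT 1. Slc22a6 in WT 3, at 5.19 CPM, was above KO 8. The part of meningeal tissue in these differences was not tested.

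Pla2g4e was the called gene with the clearest order of genotypes. It encodes a cytosolic phospholipase A2 and lies on chromosome 2 (chr2:120166412-120245335, minus strand), at -6.37 Mb from Hdc, where the minus sign marks lower coordinates. Its level was 31.5 and 38.7 CPM in KO, 18.8, 20.3 and 20.1 CPM in het, and 9.42, 4.79 and 5.37 CPM in WT. None of the 3 genotypes overlapped, and the group means were 35.1 ± 5.11 (SD, n = 2), 19.7 ± 0.851 (n = 3) and 6.53 ± 2.53 CPM (n = 3).

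The log2 fold change of Pla2g4e between KO and het was 0.83 (SE 0.18, adjusted p = 0.00415 by edgeR's likelihood ratio test). It was 0.67 without KO 8 (adjusted p = 0.985) and 0.95 without KO 7 (adjusted p = 0.00391). The het against WT difference was 1.61 (SE 0.20, adjusted p = 5.96e-12, same test). In the dorsal striatum, ventral striatum and motor cortex the KO minus het difference was 0.92, 1.02 and 0.74, with adjusted p of 0.00352, 0.000991 and 0.323. The difference between the hypothalamus and the other regions was -0.06 (SE 0.21, adjusted p = 0.9999, edgeR's likelihood ratio test).

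Ide encodes insulin-degrading enzyme, a zinc metalloprotease that cleaves insulin and amyloid beta, and lies on chromosome 19. It was 61.1 and 91.5 CPM in KO and 37.2, 42.1 and 35.2 CPM in het. In WT, WT 1 and WT 2 had 38.9 and 42.2 CPM and WT 3 had 61.5 CPM, as high as KO 7. The log2 fold change of KO against het was 1.00 (SE 0.21, adjusted p = 0.00293 by edgeR's likelihood ratio test), and 0.67 without KO 8. In the dorsal striatum, ventral striatum and motor cortex the difference was 0.95, 0.83 and 0.72, and it passed the test in the dorsal striatum (adjusted p = 0.00628). The ventral striatum library WT 3 also had more Ide than WT 1 and WT 2 (56.6 against 35.3 and 38.1 CPM).

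The genes within 10 Mb of Hdc on chromosome 2 were examined as a set, since they lie near the targeted gene. Of 265 with counts, 187 were tested and 3 were called, all higher in KO, where 0.239% of all genes were: Pla2g4e, Itpka and Lamp5. Their median log2 fold change was -0.004, and 19 had both KO libraries above and 23 both below the het range, where 9.98% and 9.21% of all genes were. Itpka and Lamp5 were above the het range in both KO libraries and over 2 times higher in KO 8 than in KO 7. Kcnip3, a potassium channel-interacting protein 0.9 Mb from Hdc, was 20.9 and 17.5 CPM in KO, 30.2, 25.5 and 34.2 CPM in het and between 27.7 and 34.5 CPM in WT (log2 fold change -0.65, SE 0.18, adjusted p = 0.1004, edgeR's likelihood ratio test). Both KO libraries of Kcnip3 lay below all 6 others. Gatm, which makes the creatine precursor, was 74.3 and 73.2 CPM in KO, 96.6, 109 and 136 CPM in het and at least 99.1 CPM in WT, and did not pass either (adjusted p = 0.255).

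Fos was the strongest of the 2 genes lower in KO. Fos encodes a transcription factor subunit that is made within minutes of neuronal activation, and its RNA is widely used as a marker of recent activity. It belongs to the immediate early genes, which are switched on by transcription factors already present in the cell, among them CREB, which binds the cyclic AMP response element. The 300 bases around the start of Fos (chr12:85473640-85473939, plus strand) and of Fosb (chr7:19309996-19310295, minus strand), the pair with the lowest p-values among the immediate early genes lower in KO, are printed from RefSeq on GRCm38.p6, with the core of that element, TGACG, in capitals.
Fos: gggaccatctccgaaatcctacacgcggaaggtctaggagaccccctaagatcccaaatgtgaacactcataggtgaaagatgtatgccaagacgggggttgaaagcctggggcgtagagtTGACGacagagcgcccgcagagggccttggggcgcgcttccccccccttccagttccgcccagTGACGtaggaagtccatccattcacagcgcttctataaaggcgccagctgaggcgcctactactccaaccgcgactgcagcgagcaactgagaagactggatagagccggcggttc
Fosb: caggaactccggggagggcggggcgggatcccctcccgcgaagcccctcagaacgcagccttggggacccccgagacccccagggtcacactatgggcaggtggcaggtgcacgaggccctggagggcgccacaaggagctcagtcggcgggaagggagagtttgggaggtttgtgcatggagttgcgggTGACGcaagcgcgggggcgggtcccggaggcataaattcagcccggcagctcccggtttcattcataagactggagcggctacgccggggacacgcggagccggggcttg
TGACG, read on both strands, was in 20.8% of the 32851 promoter windows of the RefSeq table. A match is a description of the letters and shows no binding. Of the 20 immediate early genes, 15 matched the table by symbol, with 20 windows in all, and 14 of these windows (70%) held the motif.

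Fos was 2.61 and 4.04 CPM in KO, 16.7, 22.5 and 10.1 CPM in het, and 3.08, 10.6 and 5.01 CPM in WT. Both KO libraries were below the het range and within or below the WT range. The log2 fold change of KO against het was -2.30 (SE 0.49, adjusted p = 0.00503 by edgeR's likelihood ratio test). It was -2.65 without KO 8 and -2.04 without KO 7, with adjusted p of 0.288 and 0.147. Against WT, KO gave -0.91 (SE 0.50, adjusted p = 0.863) and het gave 1.39 (SE 0.40, adjusted p = 0.317).

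Fos was measured in the other regions as well. In the dorsal striatum it was 1.62 and 2.91 CPM in KO and 15.4, 10.6 and 9.82 CPM in het (log2 fold change -2.40, adjusted p = 0.00505, edgeR's likelihood ratio test). In the ventral striatum it was 1.90 and 1.52 CPM in KO and 8.75, 9.18 and 6.50 CPM in het (-2.23, adjusted p = 0.121). In the motor cortex it was 5.16 and 9.76 CPM in KO and 12.1 and 13.4 CPM in het (-0.78, adjusted p = 1). The het libraries lay above the KO libraries in each of the 4 regions. Mouse WT 2, as numbered in the titles, was the highest WT library in the hypothalamus, the dorsal striatum (7.04 CPM) and the ventral striatum (8.10 CPM).

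Other immediate early genes lay the same way without passing. Fosb, a partner of the same family, was 2.17 and 1.92 CPM in KO, 7.72, 7.95 and 2.90 CPM in het and between 1.35 and 2.22 CPM in WT (log2 fold change -1.59, SE 0.46, adjusted p = 0.0969 by edgeR's likelihood ratio test). Egr1, a zinc finger factor, was 56.9 and 145 CPM in KO, 187, 278 and 146 CPM in het and 49.6, 108 and 73.1 CPM in WT (-1.01, SE 0.35, adjusted p = 0.509). For both genes the het libraries were above all WT libraries, with het against WT differences of 1.68 (adjusted p = 0.0115) and 1.40 (adjusted p = 0.0201), while KO against WT differences were 0.09 and 0.39.

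Of the 20 immediate early genes, all tested, 15 had a log2 fold change below 0, and 8 had both KO libraries below the het range, against 9.21% of all genes. These 8 were Fos, Fosb, Fosl2, Jun, Junb, Egr1, Dusp1 and Btg2. The median was -0.43, and it was -0.31 without KO 8 and -0.59 without KO 7. Fos was the only lower call, where 0.0145% of all genes were called lower and 0.239% higher. Egr3 was called in the other direction, at 14.3 CPM in KO 8, 2.17 CPM in KO 7 and between 1.35 and 3.70 CPM in het. The summed level was 198 and 320 CPM in KO, 391, 505 and 305 CPM in het and 173, 281 and 212 CPM in WT, so het 6 was below KO 8.

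**Figure D4:**
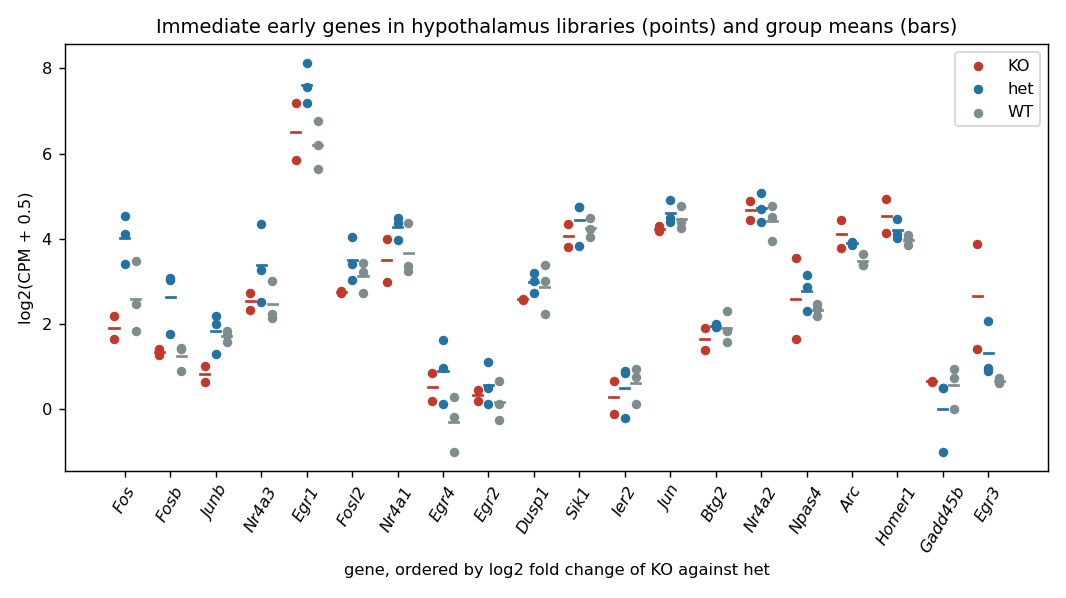
Levels of the 20 immediate early genes in each hypothalamus library on the scale log2(CPM + 0.5), with bars at group means and genes ordered from the lowest to the highest log2 fold change of KO against het. Fos at the left is 2.61 and 4.04 CPM in KO and 10.1 to 22.5 CPM in het, with WT at 3.08 to 10.6 CPM overlapping both. Egr3 at the right is high in 1 KO library.

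Spty2d1, a histone chaperone gene, was the other gene called lower. It was 11.1 and 8.72 CPM in KO, 15.8, 17.6 and 15.9 CPM in het and 12.3, 15.9 and 14.1 CPM in WT. For Spty2d1 the log2 fold change was -0.73 (SE 0.18, adjusted p = 0.0197 by edgeR's likelihood ratio test) and -0.57 without KO 8, and the KO libraries were below all het and WT libraries.

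None of the histamine genes was called, Hdc included, where 0.253% of all genes tested were called. At that share, a list of this size would seldom hold a call. Of 9 tested members, 4 had a log2 fold change above 0 and 5 below, with a median of -0.045. Hnmt, the main enzyme that inactivates histamine in the brain, was 9.78 and 7.87 CPM in KO and 7.91, 9.05 and 6.39 CPM in het (log2 fold change 0.18, SE 0.23). Maob, which acts on the next metabolite, was 42.6 and 38.7 CPM against 37.9, 42.3 and 45.7 CPM (-0.05, SE 0.13).

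The receptors were also within their spread. Hrh3 was 73.7 and 79.8 CPM in KO and 78.2, 73.4 and 88.0 CPM in het (log2 fold change -0.06, SE 0.17). Hrh1 was 9.13 and 7.87 CPM against 6.99, 14.4 and 6.58 CPM (-0.14, SE 0.31), and Hrh2 was 3.04 and 3.83 CPM against 2.76, 2.77 and 4.45 CPM (0.05, SE 0.35). Hrh4 had no count in any of the 5 libraries, and Aoc1, the peripheral histamine oxidase, was below the filter. Of the transporters, Slc18a2, which loads monoamines into vesicles, was 63.0 and 44.1 CPM against 60.9, 40.6 and 73.9 CPM, and Slc22a3 was 3.04 and 2.77 CPM against 2.02, 2.40 and 1.74 CPM. Slc22a3 was the member with both KO libraries above the het range (log2 fold change 0.49, SE 0.40), and Slc29a4 gave 0.07 (SE 0.43). The 7 tuberomammillary markers, 3 of which are in the histamine list, had a median of -0.045 with none called (0.253% of all genes).

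Neuropeptide genes gave 1 call in 21, where 0.253% of all genes tested were called. Vip encodes vasoactive intestinal peptide, a signal of the suprachiasmatic nucleus, the circadian pacemaker of the hypothalamus. It was 4.78 and 2.77 CPM in KO, 0.368, 0.924 and 0.387 CPM in het, and 4.42, 0.513 and 4.29 CPM in WT. With 2, 5 and 2 reads in het, Vip passed the filter only with the KO libraries, which favours a higher level in KO. For Vip the log2 fold change was 2.69 (SE 0.67, adjusted p = 0.00885 by edgeR's likelihood ratio test), 3.02 without KO 8 (adjusted p = 0.103) and 2.22 without KO 7. The WT libraries reached both the KO and the het level, and the KO against WT difference was 0.30 (adjusted p = 0.9997).

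Over the whole neuropeptide list, Vip included, 10 of 21 genes were above 0 with a median of -0.002. Npy, which stimulates feeding, was 21.3 and 35.3 CPM in KO and 21.2, 19.2 and 20.1 CPM in het (log2 fold change 0.49, SE 0.20, adjusted p = 0.752 by edgeR's likelihood ratio test). Its lower KO library was level with het 4. Pomc, whose products suppress feeding, was 7.39 and 3.83 CPM against 4.598, 7.76 and 4.45 CPM. Hcrt and Pmch, whose values are given above, had log2 fold changes of 0.08 (SE 0.23) and -0.05 (SE 0.20). The precursor gene Agrp was between 0.65 and 1.35 CPM in all 5 libraries.

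Hormone, receptor and transcription factor genes had no call, where 0.253% of all genes tested were called. At that share, lists of this size would seldom hold a call. The 6 tested hormone genes had a median of -0.07, with Avp at 17.2 and 17.0 CPM in KO and 12.5, 18.1 and 3.68 CPM in het. Oxt was 15.9 and 5.96 CPM against 12.3, 17.4 and 5.999 CPM, so the groups overlapped. Of 30 feeding and hormone receptors, 19 were above 0 (median 0.05). Sstr1, a somatostatin receptor, had the lowest p among them, at 8.04 and 5.32 CPM against 5.15, 4.43 and 3.68 CPM (adjusted p = 0.863). Of 30 hypothalamic transcription factors, 19 were below 0 (median -0.13), and het 6 had the lowest summed level, 347 CPM, against 381 to 462 CPM in the other 4.

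The 22 clock genes had a median of 0.03. Rora, an activator in the clock loop, was 251 and 233 CPM in KO and 298, 237 and 470 CPM in het (log2 fold change -0.47, SE 0.20, adjusted p = 0.811, edgeR's likelihood ratio test). The monoamine and the GABA and glutamate lists had medians of -0.12 and 0.03, and in the latter Slc17a7, described above, gave 2.01.

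Myelin and astrocyte genes tended to lie below 0 without any call, where 0.253% of all genes were called. The 21 myelin and oligodendrocyte genes summed to 4400 and 4217 CPM in KO, 4815 and 3764 CPM in het 4 and het 5, and 6450 CPM in het 6. The KO sums lay between those of het 4 and het 5, and medians without het 6 are not given. Of these 21 genes, 20 were below 0 with a median of -0.14. At an unadjusted p under 0.05, 1 was lower, where 1.89% of all genes were. That gene was Ermn, a cytoskeletal protein of myelinating cells, at 45.6 and 44.3 CPM in KO, 64.7, 50.1 and 78.4 CPM in het and between 58.5 and 63.8 CPM in WT (log2 fold change -0.52, SE 0.18, adjusted p = 0.433 by edgeR's likelihood ratio test). Mbp, the main myelin basic protein, was 1452 and 1362 CPM against 1530, 1203 and 2145 CPM (-0.21, SE 0.20), so the KO libraries lay inside the het range and het 6 was the highest. All 12 astrocyte genes were below 0 (median -0.16). Fgfr3, a growth factor receptor of astrocytes, was 50.4 and 41.9 CPM against 57.9, 57.3 and 60.4 CPM (-0.34, SE 0.12, adjusted p = 0.382), and Aqp4 gave -0.27 (SE 0.12).

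Microglial genes had a median of -0.07 with 1 member on each side at an unadjusted p under 0.05: Cx3cr1 at 29.1 and 31.5 CPM against 23.4, 20.5 and 27.3 CPM, and Trem2 at 1.96 and 4.26 CPM against 5.52, 6.10 and 6.77 CPM. Both are receptors of microglia, and neither was called (adjusted p = 0.884 and 0.264, edgeR's likelihood ratio test). The 8 thalamus genes were all below 0 with a median of -0.47, and 3 had both KO libraries below the het range (9.21% of all genes). The median was -0.68 without KO 7 and -0.28 without KO 8, and it is not given without het 6. The thalamus genes summed to 602 and 482 CPM in KO, 696 and 585 CPM in het 4 and het 5, and 992 CPM in het 6. Tnnt1 was 5.87 and 2.98 CPM in KO and 8.83, 6.84 and 18.6 CPM in het (-1.36, SE 0.44, adjusted p = 0.341), with the highest value in het 6.

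Lists of other structures next to the hypothalamus had medians of 0.36 (choroid plexus), 0.10 (ependymal), 0.45 (tanycyte) and 0.36 (striatal spiny neuron), with none called (0.253% of all genes). Without KO 7 they were -0.004, -0.08, 0.86 and 0.11, and without KO 8 they were 0.32, 0.23, -0.13 and 0.05. Ttr, the most abundant choroid plexus transcript, was between 0 and 3.40 CPM. In the tanycyte list, Lhx2 and Frzb were at 12.98 and 14.05 CPM in KO 8 and at 5.87 and 6.52 CPM in KO 7, with at most 6.39 and 7.36 CPM in het. Gpr6, a receptor of striatal neurons, was 0.217 and 0.638 CPM against 2.76, 2.22 and 1.36 CPM (adjusted p = 0.171). Anterior pituitary genes were near 0, with 1 of 9 tested and 5 with any count. Oligodendrocyte precursor and erythrocyte lists had medians of 0.01 and 0.03. The mitochondrial and nuclear noncoding RNA lists, which are often read as signs of RNA quality, had medians of -0.03 and 0.30, with none called. Snhg11, a nuclear noncoding RNA, was 1176 and 1448 CPM in KO, between 916 and 1082 CPM in het and between 998 and 1331 CPM in WT.

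**Figure D5:**
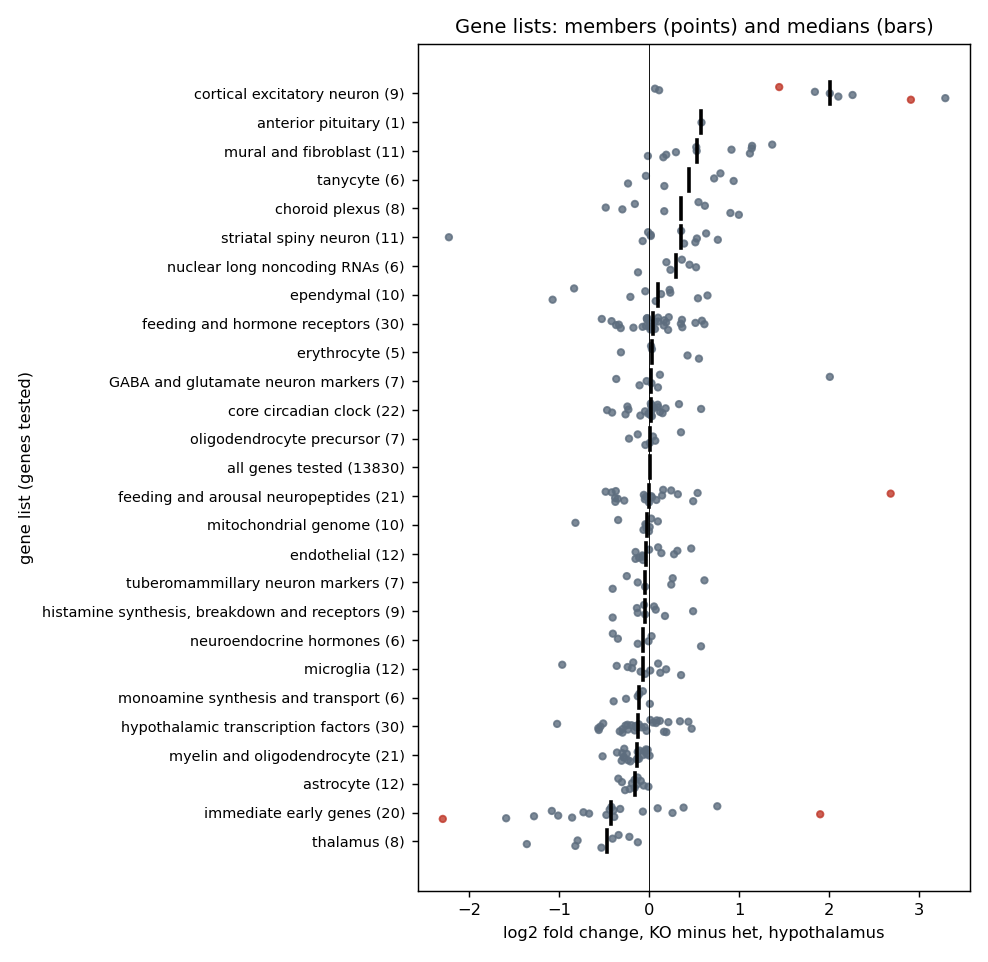
Log2 fold change of KO against het for each tested member of 26 gene lists (points) and list medians (bars), with the median of all genes tested at 0.004 and called members in red. Cortical excitatory genes are highest (median 2.01) and thalamus and immediate early genes lowest (medians -0.47 and -0.43), and most lists lie close to 0.

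The difference between the hypothalamus and the other regions was tested gene by gene. Of 13830 genes, 16 (0.116%) had a KO minus het difference in the hypothalamus that departed from the mean of the other 3 regions at an adjusted p under 0.05 by edgeR's likelihood ratio test. Without KO 8 the count was 0, and by the quasi-likelihood test it was also 0. Among the 16, Hdc alone had a negative value. Of the other 15, Rbp4 (1.70) was high in both KO libraries, and Arc (1.69), a synaptic immediate early gene, was 13.3 and 21.3 CPM in KO and 14.04 to 14.7 CPM in het. Within the hypothalamus the KO minus het difference of Arc was 0.26 (SE 0.29), so most of its 1.69 lay in the other regions. Genes described above as higher in KO 8 than in KO 7 were also among the 16: Kcnh3, Itpka, Ankrd33b, Igfbp4, Lamp5, Chrm1, Nrgn, Ano3, Egr3, Kcnj4, Ddn and Mef2c. For Igfbp4 the KO minus het difference was -0.73, -0.88 and 0.002 in the dorsal striatum, ventral striatum and motor cortex. Pla2g4e, Ide and Fos did not pass this test, with differences of -0.06 (SE 0.21), 0.17 (SE 0.25) and -0.49 (SE 0.58). By the same rule, KO against het gave 64 calls in the dorsal striatum (0.463%), 7 in the ventral striatum (0.0506%) and 1 in the motor cortex (0.00723%). Within the hypothalamus, KO against WT gave 19 (0.137%) and het against WT gave 13 (0.0940%), and these comparisons share libraries with KO against het.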

How the data were processed

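The authors deposited raw counts per gene, made from single-end reads that were trimmed, cleared of rRNA, aligned to GRCm38 and counted on exons in HTSeq's union mode. The submitters' processing notes name Trimmomatic 0.32, Bowtie2 2.2.3, STAR 2.3.1z8, SAMtools 0.1.19 and HTSeq 0.6.1p1. The cDNA kit and the counting are not stated to keep strand, so a gene and an antisense partner cannot be told apart. Symbols and positions come from GENCODE M21 (28842 of 29878 identifiers). A gene was tested if it exceeded 1 CPM, before TMM scaling, in 2 or more libraries of the comparison. The fit used edgeR 4.0.16 in R 4.3.3 (glmFit and glmLRT, TMM scaling, 12 groups over 28 libraries), with Benjamini-Hochberg adjusted p-values. All adjusted p-values in the text come from this test unless another is named. Printed CPM values are TMM scaled. Alternatives were the quasi-likelihood test, DESeq2 1.42.0, limma 3.58.1 (voom), other scalings, filters and sets of libraries, and leaving out each library.

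The members, the 26 gene lists and the comparisons were chosen with earlier results of these data known. Genes were named by rule: Hdc, the histamine genes, up to 15 higher and 15 lower calls, and the list members and regional differences with the smallest p-values. The other called genes and further list members were named after their values were seen. A "call" is an adjusted p under 0.05. In simulated counts of 13830 genes for this comparison, 74 of 100 genes changed by 1 log2 unit and 92 of 100 changed by 2 were recovered. Another 21 calls fell on unchanged genes. These made up a larger share of the simulated calls than the threshold of 0.05, so the simulation does not show that calls keep to it. How closely the simulated libraries resemble the real ones was not tested, so these rates need not hold for the real calls. Libraries of the same genotype in the hypothalamus differed by more than sampling noise (chi-square per degree of freedom 2.80 to 7.28), so none was counted as a duplicate. The digit in the library titles was taken as a mouse number, which the study does not explain. Values of 1 called gene are not reported here, and it stays in all counts.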

Additional observations from a re-analysis of the deposited data

Results flagged for a closer look

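The 4 genes given here were picked for the smallest p-values in the test of the difference between regions (edgeR's likelihood ratio test). Their passing that test was therefore fixed by the choice. In each, the KO minus het difference in the hypothalamus departed from that in the other 3 regions, and other genes named above passed the test too. The differences between regions were 3.19 for Kcnh3, 1.95 for Igfbp4, 2.65 for Itpka and 2.6 for Ankrd33b on the log2 scale, with adjusted p of 3.30e-06, 1.23e-05, 1.77e-05 and 0.000111. All 4 were highest in KO 8 among the hypothalamus libraries, and no gene passed this test without KO 8.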

How the results depend on the processing

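Of the 35 calls between KO and het, the count was 0 by edgeR's quasi-likelihood test, 7 by DESeq2, 0 by limma voom without a block, 0 by limma voom with the replicate block and 16 with a filter at 5 CPM, and leaving out 1 library at a time gave 0 to 86. The lowest count came without KO 8 and the highest without KO 7. Of the 5 called list members, these settings left 0, 1, 0, 0 and 2, and leaving out 1 library gave 0 to 7. The 4152 genes with both KO libraries outside the het range became 6234 to 7350 with 1 library left out, a count that grows by construction as the range or the group shrinks. The 16 differences between regions became 0 by the quasi-likelihood test and 0 to 53 with 1 library left out. Without KO 8 the log2 fold changes of Egr3, Mef2c and Inka2 turned to -0.009, -0.173 and -0.437, and over the libraries left out in turn they ran up to 2.671, 2.125 and 2.091, each without KO 7. Fitting the 5 libraries alone called 36 genes, of which 22 were shared with the 35, and fitting the 8 hypothalamus libraries called 30, of which 21 were shared. The cause of these changes was not tested.

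No paired analysis was possible between KO and het because KO 7 and KO 8 share no number with het 4, het 5 and het 6, so the replicate block acts only through the other regions. Libraries with the same number in different regions did not deviate together (mean correlation 0.01 over 34 pairs, against -0.006 over 56 pairs with other numbers). The fit with a fixed replicate block called 16 differences between regions.

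Depth limits genes near 1 CPM, where a library holds about 4 or 5 reads. With 2 KO libraries, no exact permutation test can go below 0.1, and every adjusted p rests on spread shared across genes and groups.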
